A study of Mus musculus with 2 samples.

Results

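Long intergenic non-coding RNAs (lincRNAs) were compared between wild-type (WT) and miR-146a-/- LSK cells, the Lin- Sca-1+ c-Kit+ fraction of mouse bone marrow in which blood stem cells and multipotent progenitors lie. The 206 members were selected on annotation and on abundance: autosomal genes of type lincRNA in GENCODE M21 with 20 or more raw counts summed over both libraries. Gm42418 and Gm26917 were left out because they carry ribosomal RNA sequence. They are 206 of 39017 genes in the deposited table and of 13880 with 20 or more counts, called measured below. Of 1550 autosomal lincRNA rows, 1002 had 0 counts in both libraries and 340 had 1 to 19. A further 5 measured lincRNAs were X-linked and so not members.

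Both groups were adult C57BL/6J mice aged 10 to 14 weeks and untreated as far as the labels say. The WT library pooled cells of 12 mice and the miR-146a-/- library, from animals of that genotype in which the microRNA is missing, pooled cells of 6. The 2 libraries are called WT and knockout below. The targeted gene cannot check the labels, because Mir146 had 0 counts in both. There was 1 library per genotype, so no difference has a replicate check, no p-value is given, and each statement compares 2 libraries. In bulk RNA, a change in the mix of cells and a change in RNA per cell cannot be told apart.

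A lincRNA is a transcript longer than a small RNA, often spliced, with no annotated protein product, whose gene lies between protein-coding genes. Some act in the nucleus on chromatin or nuclear bodies, some in the cytoplasm on RNA decay, and some serve mainly as precursors from which microRNAs or small nucleolar RNAs (snoRNAs) are cut. Many start beside the promoter of a coding gene and are transcribed away from it. miR-146a is a microRNA induced by NF-kB that damps signalling by Toll-like and IL-1 receptors in blood cells.

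Raw counts summed to 35069136 for WT and 22231389 for knockout. Those on protein-coding genes summed to 28529310 and 11450144, a smaller part of the total in knockout. The bearing of this difference in composition on the lincRNA ratios was not tested. The LSK markers Kit (558 and 728 normalised CPM, given in the order WT, knockout throughout) and Ly6a, which encodes Sca-1 (66.8 and 74.6), were present in both. Of the other LSK markers, Cd34 (551 and 481), Flt3 (467 and 399) and Procr (29.2 and 22.3) had lower levels in knockout. Slamf1 (2.79 and 4.42) had a higher level there, and no LSK marker was called either way. Over 13 genes of the lineages sorted out, the summed level was 52.2 (WT) and 67.1 (knockout), mostly Itgam, and Cd3e and Cd8a had 0 counts in both. The granule genes Ltf and Ngp and the antibody chain gene Jchain were called lower and Cd4 higher. The part of such cells in the lincRNA differences was not tested.

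The lincRNA pool was dominated by 1 transcript. Malat1, a nuclear RNA of splicing speckles, held 60.5% of the members' counts in WT (95% Clopper-Pearson interval 60.3 to 60.8%) and 67.2% in knockout (66.9 to 67.6%). Normalised CPM are counts scaled to library sizes from TMM, a method that takes most genes as unchanged. Summed over the members, levels came to 2689 and 3791 normalised CPM, and without Malat1 to 1061 and 1242. Most members were rare: 86 lay under a mean of 1 normalised CPM, while 20 exceeded 10 in WT and 27 in knockout. Per kilobase of exon, the median level of members was 0.630 and 0.873 normalised CPM, against 4.88 and 4.68 for autosomal protein-coding genes. The members had a median exon length of 2095 bases in 2 exon blocks, against 4519 bases in 10 blocks for those coding genes.

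After Malat1, the most abundant members per library were Neat1, which builds nuclear paraspeckles, at 111 and 179 normalised CPM, and 1700020I14Rik, known as Cyrano, at 105 and 91.1. Tmem250-ps (84.3 and 77.3), Gm42743 (83.3 and 53.1) and Gm10076 (81.4 and 67.1) followed. The counts of the last 2 are uncertain. Gm42743 shares exons with the histone gene Hist2h2bb on the same strand, and 70.9% of the 31-base words of Gm10076 occur in other genes, led by the ribosomal protein gene Rpl41. AI504432, a lincRNA beside the potassium channel gene Kcna3, had 40.0 and 51.3 normalised CPM, and the snoRNA host Snhg12 had 25 and 32. 1810058I24Rik (21.7 and 22.1) and AU020206 (21.6 and 22.2) were at nearly equal levels in the libraries.

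More lincRNAs were higher than lower in the knockout library by TMM scaling. Calls of higher or lower required a ratio whose 95% interval, which covers counting error only, lay fully past 1.5-fold. Of 206 members 33 were called higher, or 16%, where 5.35% of all measured genes and 4.40% of autosomal protein-coding genes were. None was called lower, where 1.53% of all measured genes and 1.44% of autosomal protein-coding genes were. The log2 ratio, knockout over WT, was positive for 144 members and negative for 62, with a median of 0.40 (quartiles -0.10 and 0.85), or 1.31-fold. Over all measured genes the median was -0.01 and over autosomal protein-coding genes -0.03. The interval lay wholly above 0 for 67 members and wholly below 0 for 11.

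The direction depends on the scaling. By total counts, 8 members were higher and 24 lower, 56 were positive and the median was -0.41, but the median of all measured genes was then -0.83 and 7077 of the 13880 were lower. A scaling shifts every gene alike, so the gap between both medians stays nearly the same by construction. Ratios below are by TMM.

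The filter on summed counts acts on these numbers. Of the 206 members, 21 reached 20 counts only through a high knockout level and 9 only through a high WT level, so their ratios had to be positive or negative. Of the 176 members that either library alone would have carried past the filter, 24 were called higher (13.6%) and 0 lower, with a median of 0.38. Among the 13343 measured genes of that kind, 4.85% were higher and 1.34% lower. The 17 autosomal lincRNAs with 18 or 19 counts had ratios from -1.41 to 2.46, and the 7 with 20 or 21 counts from -0.49 to 2.89.

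The share called higher was set beside that of autosomal protein-coding genes with as many counts. With at least 20 and fewer than 50 counts, 13 of 82 members were called higher (15.9%), where 9.18% of coding genes were, but 9 of the 13 reached the filter only through the knockout library. Of the 52 members in that class that either library would have carried, 4 were called higher (7.69%), where 4.55% of such coding genes were. With at least 50 and fewer than 100 counts, where either library would have carried every member, it was 7 of 33 members (21.2%), against 6.24% of such coding genes. With at least 200 and fewer than 500 it was 4 of 34 members (11.8%) against 5.52%, and with 1000 or more it was 2 of 14, Malat1 and Neat1 (14.3%), against 3.54%. Medians over whole classes were also compared, for classes that begin at 20, 50, 100, 200, 500 and 1000 counts. The members' medians were 0.65, 0.43, 0.10, 0.26, 0.25 and 0.11 in that order. Coding genes had 0.30, 0.19, 0.10, -0.05, -0.13 and -0.04. From 100 to fewer than 200 counts the medians were thus nearly equal, with 5 of 31 members called higher (16.1%) against 8.17% of coding genes. No member was called lower in any class. Of coding genes in the classes that begin at 20 and 50 counts, 0.565% and 0.907% were lower. Of those that either library would have carried, it was 0% and 0.367%. In the classes from 100 counts up, 1.38% to 2.05% of coding genes were lower.

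**Figure D1:**
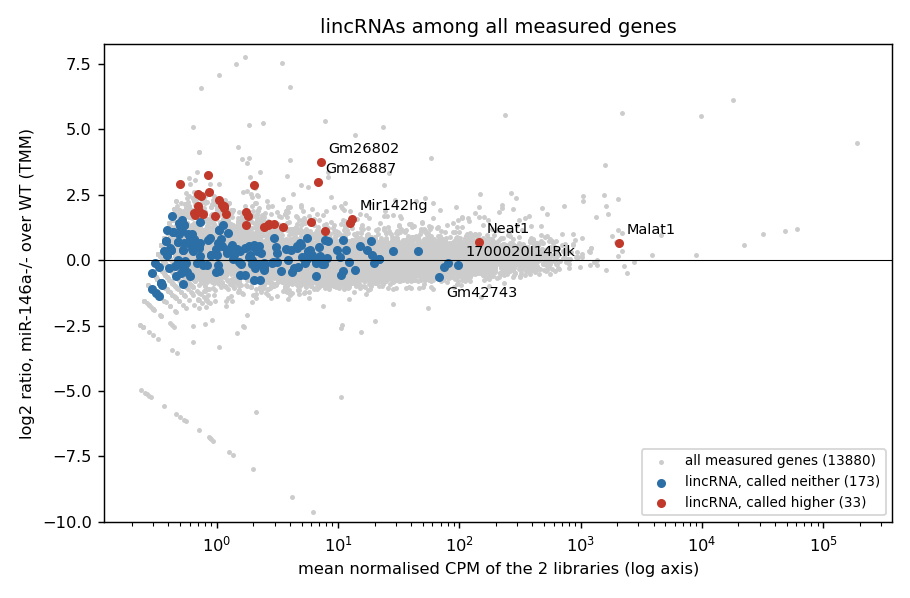
Log2 ratio of the miR-146a-/- (knockout) library over WT by TMM scaling (vertical) against the mean normalised CPM of both libraries (horizontal, log axis) for 13880 measured genes (grey) and the 206 lincRNAs, of which 33 called higher are red and the others blue. Most lincRNAs lie at low abundance, none is called lower, and Malat1 and Neat1 stand above 0 at high abundance, which they do not when scaled by total counts.

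The highest member by the interval bound nearest to 0, among those with at least 100 counts, was Gm26802 (ENSMUSG00000097266). Its raw counts were 46 (WT) and 224 (knockout), or 0.987 and 13.4 normalised CPM, a log2 ratio of 3.74 (95% interval 3.30 to 4.25). Gm26802 lies on chromosome 7 from 19298260 to 19300770 (mm10, minus strand), on the strand of Fosb and 1925 bases beyond its 3' end. Fosb, an AP-1 transcription factor gene of the immediate early response, had 16889 and 28911 counts (2.25). Whether reads past the end of Fosb were counted for Gm26802 was not tested.

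Gm26887 came next, with 70 and 203 counts, or 1.5 and 12.1 normalised CPM (3.0, 2.62 to 3.43). It lies on chromosome 8 from 84192774 to 84197667, with no other gene over its exons, and its nearest coding gene, the germ cell gene Nanos3, had 20 and 6 counts (-0.25, -1.86 to 1.11). The next member along the chromosome, Gm26532, lies 11252 bases away and was also called higher. Gdap10, which overlaps the NAD synthesis gene Nampt on the same strand, had 319 and 304 counts (1.41, 1.18 to 1.64), while Nampt was at 0.25 (0.15 to 0.35). The interval of Gdap10 lay above that of Nampt.

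Several of the others begin beside a coding gene that moved less. 4933406P04Rik starts 175 bases from the start of Bclaf1, a splicing and apoptosis factor gene, and had 70 and 65 counts (1.36, 0.86 to 1.88), with Bclaf1 at 0.04. B230217O12Rik overlaps the start of Fam160b1 on the other strand and had 66 and 58 counts (1.28, 0.76 to 1.82), with Fam160b1 at 0.14. 9330175E14Rik overlaps Nlrc5, the transactivator of MHC class I genes, on the other strand and had 97 and 83 counts (1.25, 0.81 to 1.69), with Nlrc5 at 0.64 (0.57 to 0.70). Lncpint, a lincRNA induced by p53, had 233 and 180 counts (1.10, 0.82 to 1.39).

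Malat1 had 75903 and 42627 counts, or 1628 and 2549 normalised CPM, a log2 ratio of 0.65 (0.63 to 0.66) by TMM that was -0.17 by total counts. Neat1, its neighbour on chromosome 19, had 5178 and 2995 counts and a ratio of 0.69 (0.62 to 0.75) by TMM and -0.13 by total counts. After adjustment for exon length and GC content, Neat1 was at 0.52 and no longer called. Malat1 and Neat1 were the only named members called higher whose sign turned under any scaling tried. The other called members, 20 with fewer than 100 counts, had ratios from 1.33 to 3.24. Gm26835, overlapping Hivep2 on the other strand, had 7 and 26 counts (3.24, 2.13 to 4.82), enough only through the knockout level, and Gm26860, overlapping Sec63 likewise, had 22 and 60 (2.89, 2.20 to 3.70); both were chosen after their values were seen.

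**Figure D2:**
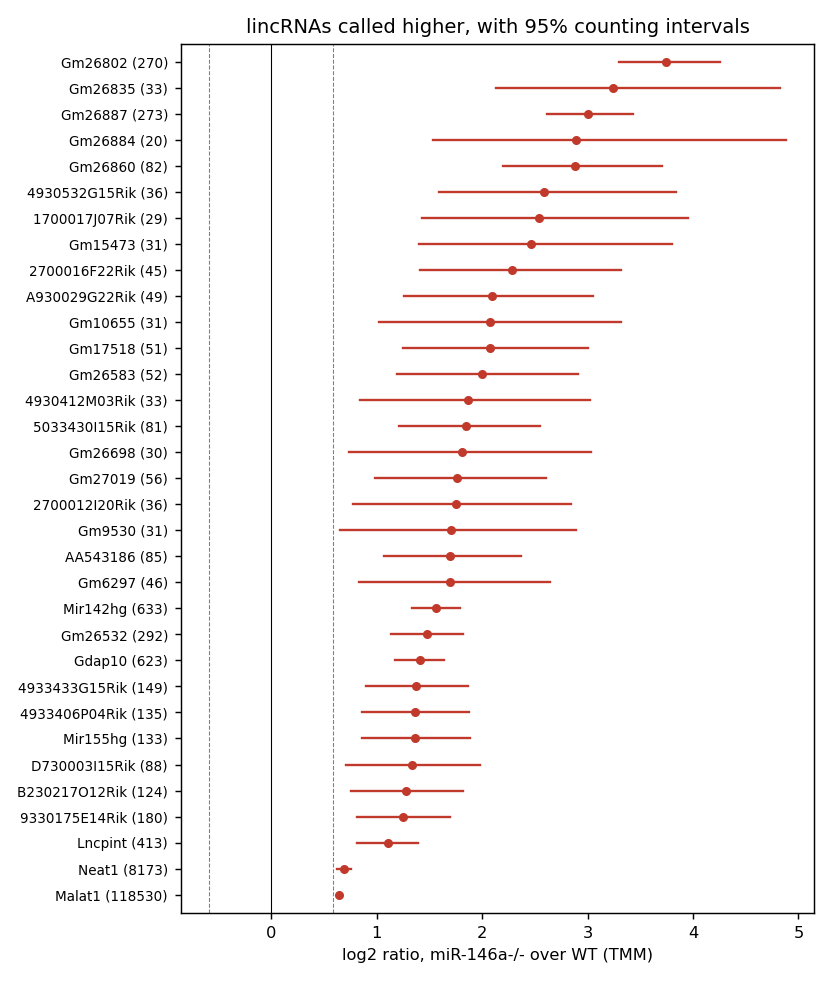
Log2 ratio by TMM scaling (point) and 95% counting interval (line) of the 33 lincRNAs called higher in the knockout library, with raw counts summed over both libraries in parentheses. Dashed lines mark 1.5-fold; Malat1 (0.65) and Neat1 (0.69) have the narrowest intervals and the smallest ratios, and both fall below 0 by total counts.

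Genes linked to microRNAs were grouped by name or by a microRNA gene that they overlap on their strand. Of 16 such members 4 were called higher (25%), 0 lower, and the median was 0.52. Over all members 16% were called higher, and over all measured genes 5.35%. For 13 members a microRNA gene lies wholly inside, and 2 of these were called higher (15.4%), Mir142hg and Mir155hg. The others called higher, Gm26532 and Gm27019, reach only 2 bases into a hairpin gene, and the mature products lie outside their spans. The mature microRNAs inside or beside the 4 genes, from RefSeq (GRCm38.p6), are shown with bases 2 to 8, the seed that pairs with targets, in capitals, since the libraries of long RNA measure the long transcripts and not these products. Each arm shown is the one usually named as the main product, with both arms for miR-142a, and miR-146a-5p is added for comparison.
miR-155-5p: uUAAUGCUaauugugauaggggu
miR-142a-5p: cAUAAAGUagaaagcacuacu
miR-142a-3p: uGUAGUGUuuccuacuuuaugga
miR-29a-3p: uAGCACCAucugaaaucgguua
miR-29b-3p: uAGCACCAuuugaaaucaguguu
miR-23a-3p: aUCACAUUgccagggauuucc
miR-27a-3p: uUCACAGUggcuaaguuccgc
miR-24-3p: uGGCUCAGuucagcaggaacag
miR-146a-5p: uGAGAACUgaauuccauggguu
Only miR-29a-3p and miR-29b-3p share a seed here, and none of the others has that of miR-146a-5p.

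Mir142hg, host of the blood-cell microRNA miR-142, had 307 and 326 counts, or 6.59 and 19.5 normalised CPM (1.56, 1.34 to 1.80). Mir155hg, host of miR-155, which is induced in activated immune cells, had 69 and 64 counts (1.36, 0.86 to 1.88) on chromosome 16 from 84703167 to 84715245. Gm26532 begins at the 3' end of the hairpin gene Mir24-2 on chromosome 8 and has Mir23a and Mir27a within 10 kb on its strand. It had 146 counts in each library, which by TMM scaling is 3.13 and 8.73 normalised CPM (1.47, 1.14 to 1.82). By total counts its log2 ratio was 0.66. Gm27019, which ends at the 5' end of the hairpin gene Mir29b-1 on chromosome 6 with Mir29a beyond it, had 25 and 31 counts (1.76, 0.98 to 2.61). It lies 19069 bases from Lncpint, which was higher too.

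The remaining members of this group were called neither way. Mir17hg, precursor of the miR-17 to miR-92 cluster that drives cell growth, had 238 and 112 counts (0.39, 0.05 to 0.72). 6720427I07Rik, over 3 let-7 genes, was at 0.60 (0.23 to 0.96), Gm20732 over Mir30d at 1.12 (-0.07 to 2.35) and E130102H24Rik over Mir101a at 0.51 (-0.07 to 1.08). Mirt1, placed here by the letters of its name alone with no microRNA gene over it, was at 0.74 (0.46 to 1.02). The 15 members that do overlap a microRNA gene had 4 called higher (26.7%) and a median of 0.51. 6030443J06Rik (0.52), Smkr-ps (0.47), Gm21814 (-0.10) and 2900076A07Rik (-0.58) hold less studied microRNA genes and had intervals that span 0. Meg3, H19 and Snhg20 also hold microRNA genes and are described with their other lists.

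Of the 4 measured nuclear or imprinted lincRNAs, 2 were called higher (50%), Malat1 and Neat1, and 0 lower. Over all members 16% were called higher, and over all measured genes 5.35%. Meg3, an imprinted RNA expressed from the maternal copy, had 237 and 71 counts (-0.26, -0.66 to 0.13). H19, an imprinted RNA of growth control, had 28 and 7 counts (-0.51, -1.96 to 0.71), too few to place. Both are also on the list for haematopoiesis, or blood formation, with Lockd. Lockd lies downstream of the cell cycle inhibitor gene Cdkn1b and had 180 and 49 counts (-0.40, -0.88 to 0.06). All 3 ratios were negative and 0 of 3 was called, while Cdkn1b was called higher at 0.79 (0.69 to 0.88). With 4 and 3 members, these lists are too short to be set apart by their calls.

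The lists of growth, p53 and genome stability and of inflammation had 5 and 4 measured members. They are too short to be set apart by calls from the 16% higher over all members or 5.35% over all measured genes. In the first list, Lncpint and Neat1 were called higher and 0 lower, with a median of 0.69. Trp53cor1, known as lincRNA-p21, had 378 and 230 counts (0.76, 0.52 to 1.0) and missed the call, whereas Cdkn1a, which encodes p21 and lies head to head with it across 11796 bases, was higher (2064 and 1891 counts, 1.35, 1.26 to 1.44). Pvt1, downstream of Myc, had 132 and 28 counts (-0.75, -1.40 to -0.16), with Myc at 0.12, and 1700020I14Rik was at -0.20 (-0.29 to -0.12). In the second list Mir155hg was called higher, and Gm14005, known as Morrbid, which lies tail to tail with the pro-death gene Bcl2l11, had only 18 and 13 counts (0.98, -0.14 to 2.12). AI504432 was at 0.36 (0.24 to 0.48) and Mirt1 as above.

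Of 6 snoRNA hosts 0 were called, where 16% of all members and 5.35% of all measured genes were called higher. Their median was -0.18, against 0.40 over all members, and 6 hosts are too few to set the list apart by calls. snoRNAs are cut from introns of these genes and guide the modification of ribosomal RNA. Snhg6 had 586 and 143 counts (-0.56, -0.83 to -0.29) and Snhg20 had 222 and 64 (-0.31, -0.74 to 0.09). Epb41l4aos was at -0.04, while Snhg12 (1166 and 535 counts, 0.35, 0.20 to 0.50) and 2700038G22Rik (0.37, 0.02 to 0.71) were positive, and 2900076A07Rik, given above, is on this list too. Thus 2 of the 6 ratios were positive and 4 negative.

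**Figure D3:**
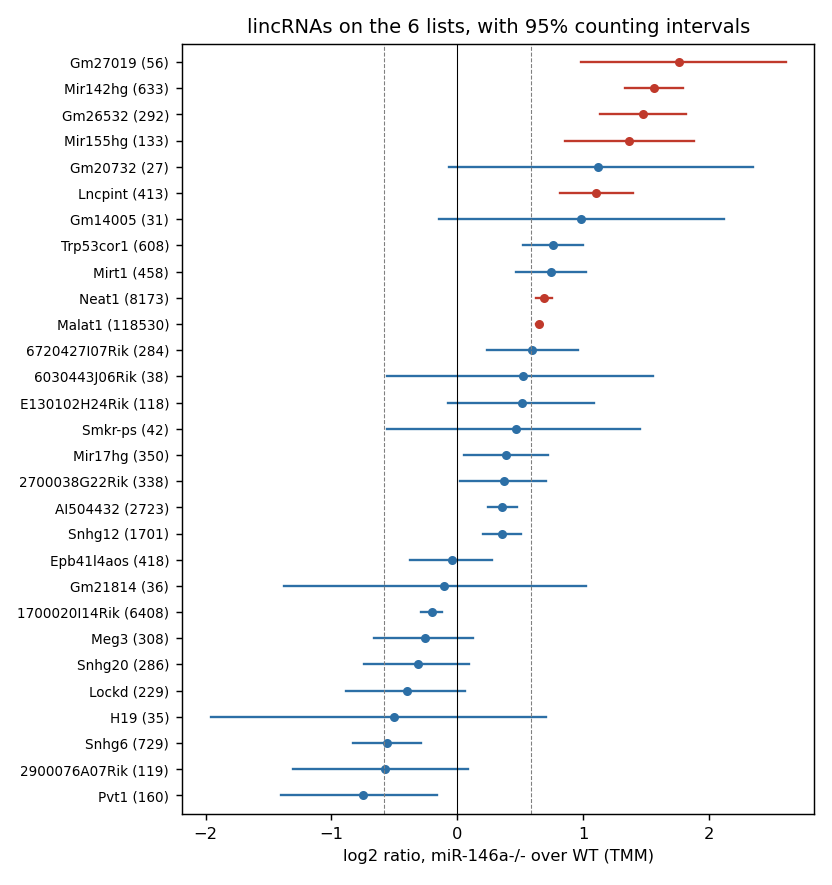
Log2 ratio by TMM scaling (point) and 95% counting interval (line) of the members on the 6 lists, with summed raw counts in parentheses; red marks those called higher and dashed lines 1.5-fold. The microRNA-linked Gm27019, Mir142hg, Gm26532 and Mir155hg stand at the top and Pvt1 (-0.75) at the bottom; the red points of Malat1 and Neat1 lie below 0 by total counts.

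At the lower end no member passed the rule. Among those with at least 100 counts, the bound nearest to 0 was farthest below it for Gm42743, with 3881 and 888 counts (-0.65, -0.76 to -0.54), whose exons overlap Hist2h2bb as said above. Snhg6 was next, and then 2310001H17Rik, near the lectin gene Clec2d, with 370 and 87 counts (-0.61, -0.96 to -0.27). Gm10076 was at -0.28 (-0.38 to -0.18), Gm10384 at -0.42 (-0.68 to -0.16), 4933404O12Rik at -0.36 (-0.59 to -0.14), 4632404H12Rik at -0.46 (-0.90 to -0.05) and Tmem250-ps at -0.13 (-0.22 to -0.04). Gm6712 had 120 and 25 counts (-0.78, -1.47 to -0.15), the lowest ratio of the 91 members with at least 100 counts.

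The nearest protein-coding gene gives each member a neighbour and an arrangement. Of 206 members, 59 lay head to head with it, the starts facing away from each other, 42 overlapped it on the other strand, 39 lay upstream on its strand, 31 downstream on its strand, 20 tail to tail, and 15 overlapped it on the same strand. The median ratio was 0.52 for head-to-head members, of which 10 were called higher (16.9%). For those overlapping on the other strand it was 0.55, also with 10 called higher (23.8%). It was 0.40 for upstream members (7 called higher, 17.9%), 0.19 for downstream ones (3, 9.68%) and 0.15 for tail-to-tail ones (2, 10%). Members overlapping on the same strand had a median of 0.11 (1 called higher, 6.67%). The share called higher was 16% over all members and 5.35% over all measured genes. Of the calls, 4 head to head, 3 overlapping on the other strand, 1 upstream and 1 downstream were of members that reached the filter only through the knockout library. Without members that only 1 library carried, the medians were 0.51 head to head (6 of 49 called higher), 0.47 for overlap on the other strand (7 of 33), 0.40 upstream (6 of 35), 0.15 for overlap on the same strand (1 of 14), 0.14 downstream (2 of 27) and 0.03 tail to tail (2 of 18). Over all members that either library would have carried, 13.6% were called higher, beside 4.85% of such measured genes. Differences between arrangements were not tested, with 1 library per genotype.

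Members far from coding genes were also more often higher than lower. For the 68 members that neither overlapped a coding gene nor lay within 5 kb of one, 8 were called higher (11.8%), 0 lower, and the median was 0.37. For the 23 beyond 50 kb, 2 were called higher (8.7%) and the median was 0.40. Beside these, 16% of all members and 5.35% of all measured genes were called higher. Exons of 82 members overlapped another gene on either strand, and since strand use in counting is not given in the sources used here, their counts are uncertain. Of the 124 with no such overlap, 17 were called higher (13.7%), 0 lower, and the median was 0.38.

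**Figure D4:**
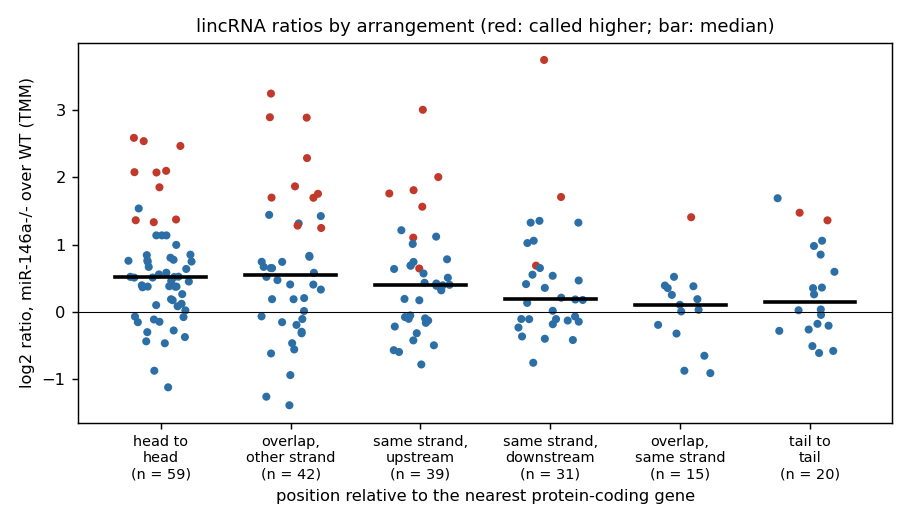
Log2 ratio by TMM scaling of each of the 206 lincRNAs (points, spread sideways for view), grouped by position relative to the nearest protein-coding gene, with the median as a bar and members called higher in red. Medians over all members run from 0.11 for overlap on the same strand to 0.55 for overlap on the other strand; by total counts the median of all members is -0.41.

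Across all pairs, the ratios of a lincRNA and its neighbour were weakly related. In 174 pairs both were measured. They had the same sign in 90 pairs (51.7%), with a Pearson correlation of 0.17 and a Spearman correlation of 0.06 across pairs, which share both libraries and are not replicates. Without Gm26802 and Fosb the Pearson correlation was 0.08. Of 8798 autosomal protein-coding genes with a measured nearest coding gene, 54.2% had the same sign as it, with correlations of 0.11 and 0.09. In the 46 pairs with at least 200 counts on each side, 29 had the same sign (63.0%), with correlations of 0.63 and 0.37, or 0.38 and 0.33 without Gm26802. In 6 pairs both genes were called higher, of 30 higher lincRNAs with a measured neighbour, and the neighbour was higher for 6 of the 144 others (4.17%). For coding genes the neighbour was higher for 42 of 383 higher genes and for 3.29% of the 8278 called neither way.

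**Figure D5:**
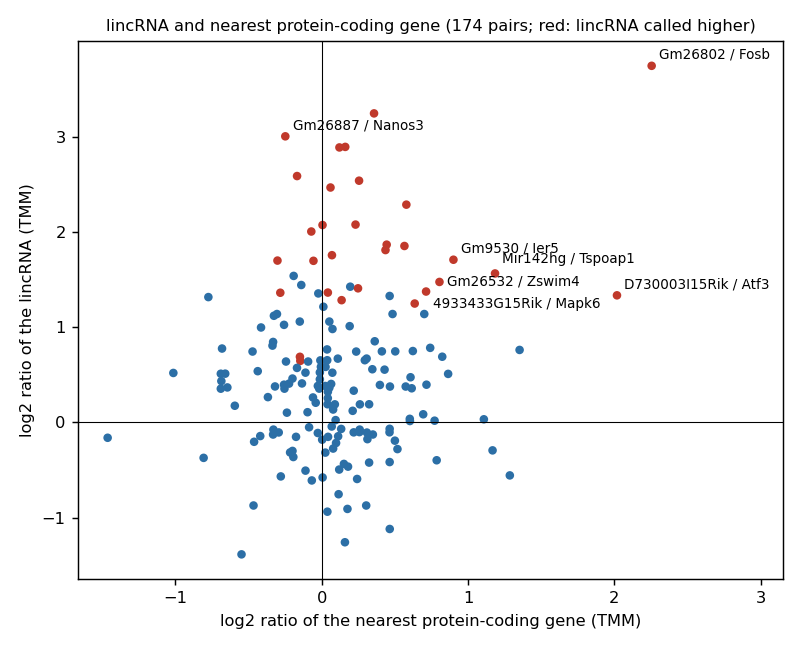
Log2 ratio by TMM scaling of each lincRNA (vertical) against that of its nearest protein-coding gene (horizontal) in the 174 pairs with both measured, with lincRNAs called higher in red. Most red points lie near 0 on the horizontal axis; Gm26802 with Fosb and D730003I15Rik with Atf3 stand apart at the right.

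The other pairs are given in turn. Beside Gm26802 and Fosb, D730003I15Rik starts 6415 bases from Atf3, a stress-induced transcription factor gene, on the other strand, and had 46 and 42 counts (1.33, 0.71 to 1.98), with Atf3 at 1724 and 2505 (2.02, 1.93 to 2.11). Gm9530 lies 13094 bases beyond the end of the immediate early gene Ier5 on its strand and had 14 and 17 counts (1.71, 0.65 to 2.89), enough for the filter only through the knockout level, with Ier5 at 0.90 (0.81 to 1.0). 4933433G15Rik starts 179 bases from Mapk6, which encodes the kinase ERK3, and had 77 and 72 counts (1.37, 0.90 to 1.86), with Mapk6 at 0.71 (0.64 to 0.78). The last were Gm26532 with Zswim4 (0.81) and Mir142hg with Tspoap1 (1.18, 0.90 to 1.48). D730003I15Rik and Gm9530 were named because their neighbours were higher too, after their values were seen.

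The starts of 4 of these 6 lincRNAs, those beside Fosb, Atf3, Ier5 and Mapk6, are shown as examples chosen after their values were seen. Gm26532 and Mir142hg are left out because the microRNAs at their loci are shown above. Each runs from 250 bases before to 50 after the RefSeq start (GRCm38.p6), 5' to 3' on the lincRNA's strand, with motif matches in capitals. The positions are chr7:19300744-19301043 (minus), chr1:191224204-191224503 (plus), chr1:155083215-155083514 (minus) and chr9:75409934-75410233 (plus).
Gm26802: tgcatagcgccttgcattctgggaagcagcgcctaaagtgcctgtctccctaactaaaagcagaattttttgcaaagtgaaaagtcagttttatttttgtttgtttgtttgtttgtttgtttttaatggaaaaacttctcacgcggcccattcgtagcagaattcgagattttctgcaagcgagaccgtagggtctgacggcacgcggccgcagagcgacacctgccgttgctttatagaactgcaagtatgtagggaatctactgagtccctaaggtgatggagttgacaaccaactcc
D730003I15Rik: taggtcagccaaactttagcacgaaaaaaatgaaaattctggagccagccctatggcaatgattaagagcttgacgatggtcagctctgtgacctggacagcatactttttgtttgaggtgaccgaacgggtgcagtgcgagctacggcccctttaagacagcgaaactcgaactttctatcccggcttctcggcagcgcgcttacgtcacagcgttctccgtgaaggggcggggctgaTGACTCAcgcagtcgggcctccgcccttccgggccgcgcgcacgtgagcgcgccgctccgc
Gm9530: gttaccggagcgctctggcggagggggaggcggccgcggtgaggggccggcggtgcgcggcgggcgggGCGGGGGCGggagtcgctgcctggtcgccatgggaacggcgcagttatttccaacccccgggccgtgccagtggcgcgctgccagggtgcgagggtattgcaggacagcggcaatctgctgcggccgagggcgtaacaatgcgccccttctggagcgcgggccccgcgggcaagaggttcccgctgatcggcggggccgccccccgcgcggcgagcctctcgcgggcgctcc
4933433G15Rik: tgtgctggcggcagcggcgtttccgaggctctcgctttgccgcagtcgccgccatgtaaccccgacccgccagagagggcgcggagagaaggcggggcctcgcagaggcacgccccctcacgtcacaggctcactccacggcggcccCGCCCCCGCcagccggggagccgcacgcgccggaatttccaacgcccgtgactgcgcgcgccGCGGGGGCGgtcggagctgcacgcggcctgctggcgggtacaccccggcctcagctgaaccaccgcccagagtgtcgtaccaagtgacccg
Both strands were searched for TGANTCA (AP-1), TGACGTCA (CRE), GGGNNTTTC (NF-kB), CNTATTAGG (SRE, the serum response element) and GCGNGGGCG (EGR). D730003I15Rik held an AP-1 match that begins 11 bases before its start. Gm9530 held 1 EGR match and 4933433G15Rik held 2, in sequence with 76.3% and 73.7% G and C, and Gm26802 held none of the 5.

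Among the 93 members with a RefSeq start within 1000 bases of the GENCODE one, 13 were called higher and 80 neither way. AP-1 matches occurred in 2 of 13 called members and 8 of 80 others, and in 7.81% of 32851 promoters of all genes. EGR matches occurred in 3 of 13 and 8 of 80, against 5.55% of all promoters. NF-kB matches occurred in 0 of 13 and 3 of 80 (4.36% of all), CRE matches in 0 of 13 and 6 of 80 (1.79%), and SRE matches in none of the 93 (0.335%). With 13 called members these counts are too small to set the classes apart.

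A microRNA finds target RNAs mainly through pairing of its seed, so the longest GENCODE M21 transcript of each member was searched on its own strand for AGTTCTC, the complement of bases 2 to 8 of miR-146a-5p. Of 206 members 38 held at least 1. Their median ratio was 0.41 with 8 called higher (21.1%), against 0.39 with 25 called higher (14.9%) for the 168 without a match. The median exon length was 3383 bases with a match and 1757 without. Match and length were not separated, and the difference in shares called higher was not tested. Neat1 held 3 matches, at bases 4365, 5313 and 11895 of its 20771-base transcript, and Gm26802, Lncpint and Gdap10 held 1 each; they are shown because these were the named members called higher that had a match, with the match in capitals and 11 bases to either side.
Neat1, base 4365: tatacttacaaAGTTCTCcatgttgtgtc
Neat1, base 5313: gtttcttactgAGTTCTCaagcataaaaa
Neat1, base 11895: caagttcaggtAGTTCTCtgaatttgaga
Gm26802: ttttggaagttAGTTCTCttcttccatct
Lncpint: agctcacgtgcAGTTCTCcatttagctag
Gdap10: cataggttaacAGTTCTCtttcatggtta
Of these 6 sites only that at base 5313 of Neat1 is followed by an A, the base that strengthens such sites in messenger RNAs.

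Other long non-coding classes had similar ratios in these libraries. Of 256 measured autosomal antisense RNAs, 44 were called higher (17.2%) and 0 lower, with a median of 0.43. Among 178 processed transcripts 17 were higher (9.55%) and 1 lower (median 0.35). The 39 non-coding RNAs annotated to bidirectional promoters had 5 higher (12.8%), 0 lower and a median of 0.52. Processed pseudogenes, set beside these classes, gave 13 of 244 higher (5.33%), 3 lower and a median of 0. Shares like that of the lincRNAs thus also occurred in antisense RNAs.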

How the data were processed

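The authors deposited whole-number read counts per Ensembl gene for both libraries. Per the file headers, junction alignments were placed on the genome and duplicates flagged; which program counted, on which annotation and with what strand setting is unstated in the sources used here. The labels call the libraries single-stranded and ribodepleted, and mm10, Salmon 0.9.0 and STAR 2.5.3a appear, with no role, in the submitters' processing notes. GENCODE M21, of the same assembly, named 37693 of 39017 genes.

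The TMM method of edgeR 4.0.16, in R 4.3.3, scaled library sizes on the 13880 genes with at least 20 counts. The scaled sizes were 46617575 for WT and 16724070 for knockout. The quasi-likelihood test needs replicates and could not be run. Log2 ratios used a prior count of 0.5, and 95% Clopper-Pearson intervals of the count share, which cover counting error only: without molecular identifiers, reads need not be separate molecules. Calls needed the interval beyond 1.5-fold. Neighbours came from gene spans and shared sequence from 31-base words of the longest transcript. Named genes were the 10 most abundant members, the 12 highest and 12 lowest with at least 100 counts by the bound nearest to 0, members on 6 lists, and their neighbours. Members and lists were chosen with earlier results of these data known. RefSeq promoters matched 105 members by symbol. Python 3.11.15 and SciPy 1.17.1 were used. The value of 1 lineage marker is not reported here.

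Alternatives tried were total-count, protein-coding and upper-quartile scaling, size factors from DESeq2 1.42.0, filters at 200 counts or none, a 2-fold threshold, a prior count of 5, adjustment for exon length and GC content, and removal of overlapping genes. Removal of members that passed through 1 library, that lay within 5 kb of coding genes or that shared sequence words was added after seeing the data.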

Additional observations from a re-analysis of the deposited data

How the results depend on the processing

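DESeq2 size factors and upper-quartile scaling each gave the same 33 higher members and 0 lower. Each gave 768 higher and 200 lower among the 13880 measured genes. By total counts 8 members were higher and 24 lower, the median was -0.41, and Malat1 and Neat1 were at -0.17 and -0.13. Of all measured genes 140 were then higher and 7077 lower. Scaled by total counts of protein-coding genes, 28 were higher (13.6%), 1 was lower and the median was 0.24. All measured genes then had 3.6% higher, 4.1% lower and a median of -0.17. With at least 200 counts 9 of 60 were higher (15%) with a median of 0.22, beside 4.58% higher of 10730 genes. With no filter 37 of 546 were higher (6.78%) and 1 lower, beside 740 higher of 20304 genes. After adjustment for exon length and GC content the median was 0.52, and 32 of the 33 higher members kept their call among 37. Of the 13880 measured genes 803 were then higher. Beyond 2-fold 18 were higher (8.74%), beside 2.12% of all measured genes. With no overlapping gene 17 of 124 were higher, and with no coding gene within 5 kb 8 of 68, in both cases from fewer members; the latter setting was chosen after seeing the data. Pairs with the same sign were 51.7% of all pairs, 63.0% with at least 200 counts on each side and 61.2% more than 5 kb apart. For the other settings the cause was not tested. No paired analysis was possible because each genotype had 1 library. The 82 members with 20 to 49 counts had intervals too wide to be called for ratios near 1.5-fold.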

Other observations

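Some genes annotated as lincRNA are known to encode short peptides. AW112010, whose product acts in inflamed macrophages, had 837 (WT) and 340 (miR-146a-/-) counts and a log2 ratio by TMM of 0.18 (-0.01 to 0.36). 1810058I24Rik, which encodes a mitochondrial micropeptide, had 1010 and 369 counts (0.03, -0.15 to 0.20). Neither interval excluded equal levels. AW112010 was chosen after its values were seen.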
